A study of Mus musculus with 2 samples.

Results

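The 7 genes described here are Slc3a2, Slc7a5, Slc7a6, Slc1a5, Slc38a1, Slc38a2 and Tfrc, which encode 6 subunits of amino acid transporters and the transferrin receptor. They were taken by their GENCODE M21 symbol from the gene and transcript tables of both libraries, and they are 7 of 55536 annotated genes in those tables. The RNA came from regulatory T cells (Treg cells, CD4 T cells that restrain immune responses), primary cells of a male mouse aged 9 weeks. There was 1 group of 1 biosample, with the whole organism given as its origin, and 2 technical libraries of polyA-selected RNA were made from it. The sources used here do not state strain, sorting markers, strandedness or read length. No other genotype, treatment or time was sampled, so levels were described and the only comparison was between the technical libraries.

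The protein of Slc3a2 is the heavy chain of CD98. It carries no substrate itself but brings light chains such as LAT1 (Slc7a5) and y+LAT2 (Slc7a6) to the cell surface, where the pair exchanges amino acids across the membrane. LAT1 imports leucine and other large neutral amino acids, ASCT2 (Slc1a5) exchanges glutamine and other small neutral amino acids, and SNAT1 and SNAT2 (Slc38a1, Slc38a2) bring in neutral amino acids together with sodium. The transferrin receptor (Tfrc) takes up iron bound to transferrin, and its mRNA is held stable when iron is scarce by regulatory proteins that bind hairpins in its 3′ untranslated region. In T cells these transporters and the receptor are known as genes that increase on activation.

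Library 1 totalled 34697128 estimated counts and library 2 totalled 32049199. A gene was called detected at 1 TPM or more (a level corrected for transcript length and scaled to the same total in each library) in both libraries, which 13275 genes met. The Treg label matched its markers, since all 7 of 7 Treg and CD4 T cell markers were detected and Foxp3, the defining transcription factor, stood at 108.27 and 110.65 TPM. B cell markers summed to 45.8 and 40.5 TPM and myeloid markers to 21.8 and 15.4 TPM.

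All 7 genes were detected. Their median was 46.1 TPM, against 31.1 TPM for the 10583 detected protein-coding genes and 22.8 TPM for all detected genes, and 4 of the 7 stood above the protein-coding median. Slc1a5 was the highest and Tfrc the lowest, 11.4 ± 1.05 times apart (± SD over n = 2 technical libraries here and below). Over protein-coding transcripts alone, described further on, the same 2 genes were 5.94 ± 1.13 times apart in TPM, and Tfrc was the lowest in library 1 but not in library 2. That change of place in library 2 rested on 5 estimated counts of Tfrc-203, a transcript of 166 bases. In a bulk sample a level cannot tell fewer expressing cells from less RNA per cell.

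**Figure D1:**
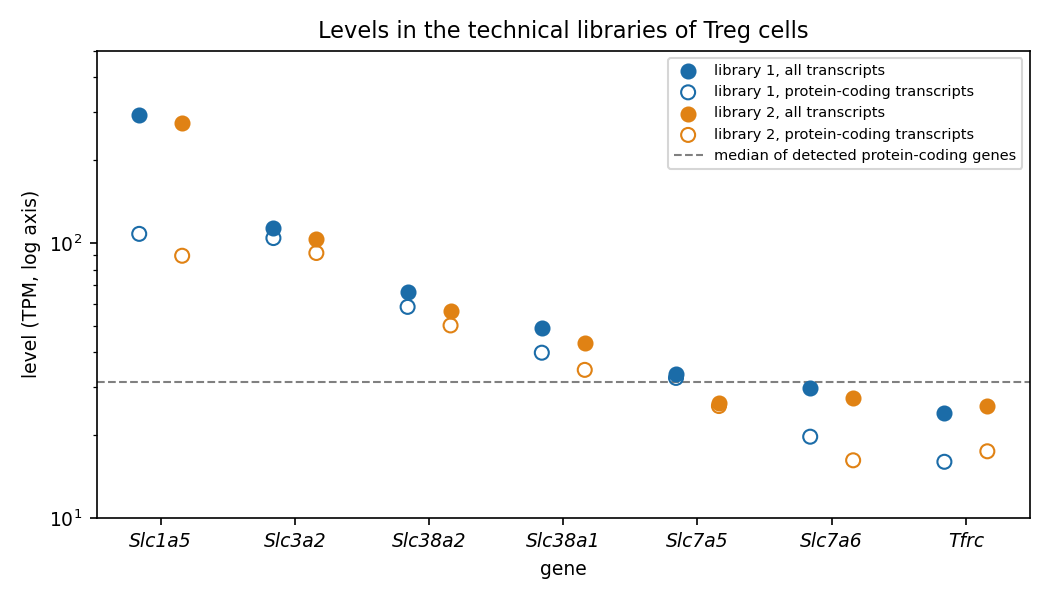
Level of each gene in TPM on a log axis, with library 1 left of library 2, filled circles for all transcripts and open circles for protein-coding transcripts alone. Slc1a5 stands at 291.56 and 272.02 TPM over all transcripts but at 107.87 and 89.80 TPM over its protein-coding transcript, close to Slc3a2, and the dashed line marks the median of detected protein-coding genes at 31.1 TPM.

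The heavy chain gene Slc3a2 (chr19:8706882-8723369, minus strand, GRCm38) had 113.24 TPM in library 1 and 103.05 TPM in library 2. These came from 3683 and 3192 estimated counts, and the mean of 108 ± 7.21 TPM exceeded that of 84.0% of detected protein-coding genes. Both libraries put the gene far above every light chain that is known to pair with it.

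Of the light chains, Slc7a5 (chr8:121881150-121907694, minus strand) had 33.34 TPM in library 1 and 26.16 TPM in library 2, from 2379 and 1823 estimated counts. Slc7a6 (chr8:106168857-106198706, plus strand) had 29.66 and 27.25 TPM, from 1668 and 1531 estimated counts. The libraries' values overlapped: Slc7a5 was 1.12 times Slc7a6 in library 1 and 0.96 times in library 2, so no order between them could be given over all transcripts. Over protein-coding transcripts alone Slc7a5 had 32.28 and 25.51 TPM and Slc7a6 19.73 and 16.19 TPM, with no overlap, and Slc7a5 was 1.61 ± 0.0427 times Slc7a6. Both genes stood near the middle of the detected protein-coding genes, above 48.7% of them for Slc7a5 and 47.4% for Slc7a6.

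Among the 4 other light chains of CD98, 1 was detected. Slc7a10, which encodes a carrier of small neutral amino acids, had 4.31 and 4.42 TPM. Slc7a7 (y+LAT1) had 1.32 and 0.79 TPM, Slc7a8 (LAT2) 0.28 and 0.01 TPM, and Slc7a11 (xCT, the cystine and glutamate exchanger) 0.12 and 0.15 TPM. Slc7a5 and Slc7a6 together made up 91.3% and 90.9% of the summed level of the 6 light chains. The sum was 69.0 and 58.8 TPM, and the heavy chain was 1.64 times the sum in library 1 and 1.75 times in library 2 (mean 1.70 ± 0.0797). It was 3.67 ± 0.384 times Slc7a5 and 3.80 ± 0.0257 times Slc7a6.

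**Figure D2:**
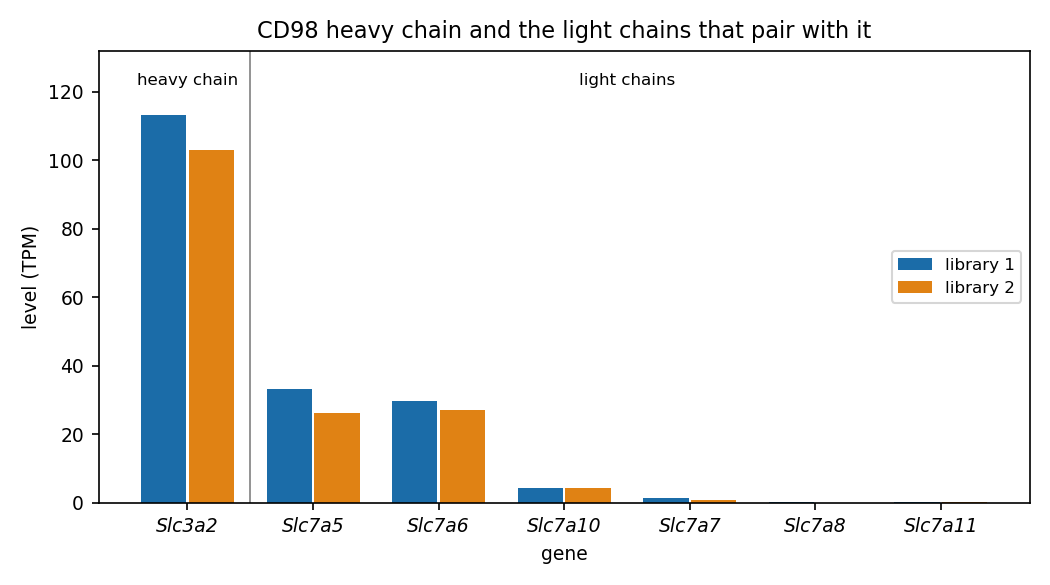
Bars give the level in TPM of the CD98 heavy chain gene and of the 6 light chain genes, with library 1 left of library 2. Slc3a2 reaches 113.24 and 103.05 TPM, Slc7a5 and Slc7a6 lie between 26.16 and 33.34 TPM, and the other 4 light chains lie at 4.42 TPM or less.

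The second heavy chain of this kind, rBAT (Slc3a1), was not detected, at 0.60 and 0.98 TPM, close to the minimum in library 2. The deposited whole-number gene counts held 80 and 92 reads for Slc3a1, above its 28.27 and 44.68 estimated counts, so its level is uncertain. Its light chains Slc7a9 and Slc7a13 had 0 estimated counts in both libraries, which allows up to 3 counts per library. Cationic amino acid transporters, which are relatives of the light chains that work without a heavy chain, were led by Slc7a1 at 21.15 and 21.47 TPM, and 2 of 4 were detected. Among uniporters and lysosomal amino acid transporters 5 of 9 were detected. The highest was Slc43a2 (LAT4), a uniporter for large neutral amino acids, at 44.14 and 42.33 TPM, or 1.32 and 1.62 times Slc7a5.

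The genome around these genes bears on how their reads can be assigned. Slc7a5 lies within the span of the predicted gene Gm20388, which runs on the opposite strand and had 1.68 and 59.69 estimated counts. Since strandedness is not given, reads of the 2 genes cannot be told apart where their exons overlap, though even 59.69 counts are few against 1823 for Slc7a5 in library 2. Snhg1, a noncoding small nucleolar RNA host gene, starts 106 bases from Slc3a2 on the opposite strand and had 44.87 and 54.96 TPM. Slc7a6os, on the opposite strand 2011 bases from Slc7a6, had 55.99 and 54.47 TPM, above Slc7a6 in both libraries.

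Slc1a5, encoding the glutamine transporter ASCT2 (chr7:16781340-16798274, plus strand), had the highest level of the 7. It had 291.56 TPM in library 1 and 272.02 TPM in library 2, from 15880 and 14097 estimated counts. The mean of 282 ± 13.8 TPM exceeded that of 95.4% of detected protein-coding genes and was 2.61 ± 0.0459 times that of Slc3a2. None of the 6 other SLC1 family genes was detected. Its closest relative Slc1a4 (ASCT1) had 0.38 and 0.24 TPM. The glutamate transporter genes Slc1a1, Slc1a2 and Slc1a3 had at most 0.31 TPM in either library. Slc1a6 and Slc1a7 had 0 estimated counts in both libraries, with the same bound of 3 counts.

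Most of the Slc1a5 level was assigned to a transcript that keeps an intron. Slc1a5-202, annotated as a retained-intron transcript, had 161.89 and 155.32 TPM, or 55.5% and 57.1% of the gene. The protein-coding transcript Slc1a5-201 had 107.87 and 89.80 TPM, or 37.0% and 33.0%. Slc1a5-202 was 1.62 ± 0.162 times Slc1a5-201. In library 1 the deposited credibility interval, whose level is not stated in the file headers, ran from 140 to 160 TPM for Slc1a5-202 and from 90.2 to 111 TPM for Slc1a5-201. In library 2 it ran from 133 to 153 TPM for Slc1a5-202 and from 73.3 to 93.7 TPM for Slc1a5-201. The intervals of the pair did not overlap in either library. The TPM of Slc1a5-202 lay above its own interval in both libraries, so the intervals are not bounds on the TPM given here.

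The pair differs in 2 places: Slc1a5-202 starts 28 bases after Slc1a5-201, and it keeps intron 7 of the 8 in Slc1a5-201. This intron has 71 bases and lies within the coding region at chr7:16795953-16796023. It is shown because it is the longer of these differences. The intron is printed in capitals, with 20 bases of the flanking exons in lower case, on the plus strand of GRCm38.
Slc1a5 intron 7: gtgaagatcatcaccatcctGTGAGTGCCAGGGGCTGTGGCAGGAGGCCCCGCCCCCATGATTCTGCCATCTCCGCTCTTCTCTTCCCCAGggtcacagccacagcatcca
The intron opens with GT and closes with AG. Its length leaves a remainder of 2 on division by 3, and read from the start codon of Slc1a5-201 the frame of Slc1a5-202 meets a TGA that starts at the second base of the intron (chr7:16795954), after 432 of 555 codons, or 77.8% of the coding length.

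The sequence that could separate these transcripts was short. Of 2758 windows of 50 bases in Slc1a5-202, 119 do not occur in Slc1a5-201. Of 2715 windows in Slc1a5-201, 76 do not occur in Slc1a5-202, and only 28 occur in no other annotated transcript of the gene. The pair shares 2736 exon bases, so the division of most reads between them rested on the authors' model.

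**Figure D3:**
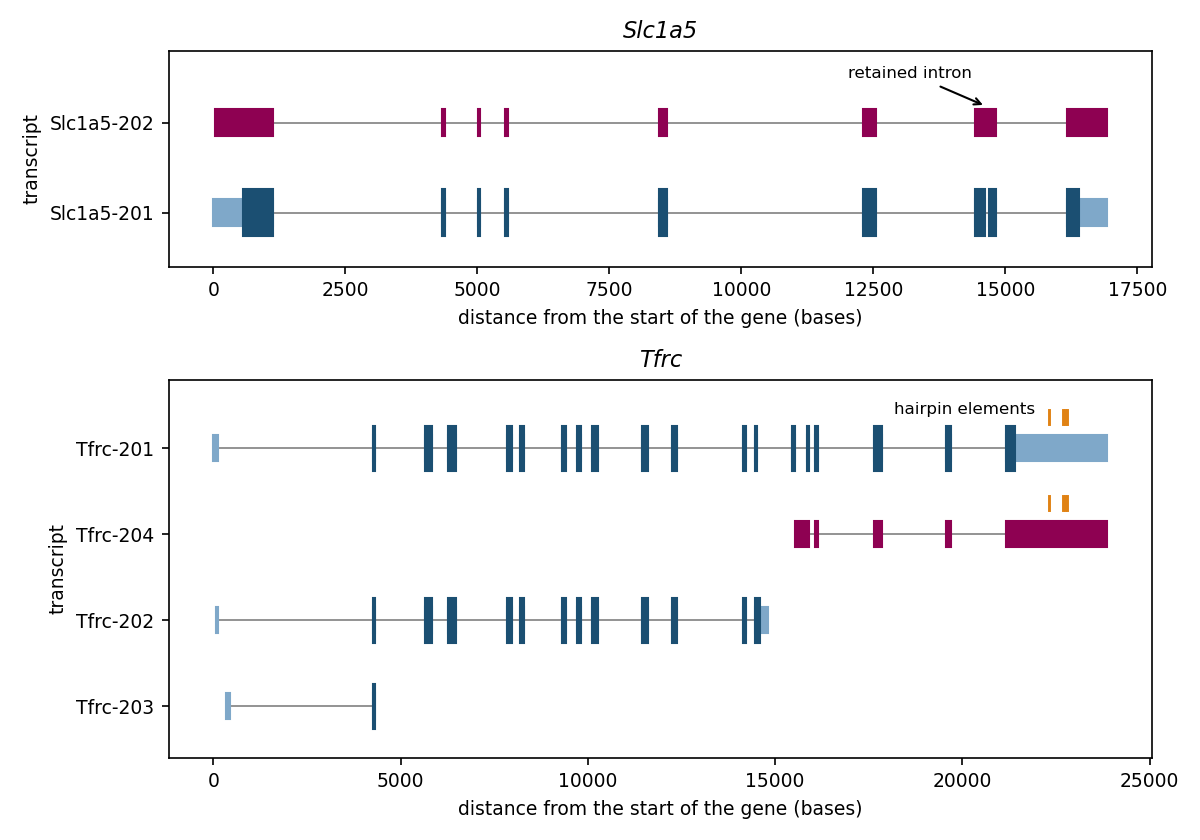
Exons as boxes against distance from the start of the gene in bases, for Slc1a5 in the upper panel and Tfrc in the lower panel, with coding parts tall and dark blue, untranslated parts of coding transcripts light blue, and retained-intron transcripts purple. The arrow marks the intron of 71 bases that joins exons 7 and 8 of Slc1a5-201 in Slc1a5-202. Orange ticks mark the 4 matches to the hairpin pattern in the last exon of Tfrc-201 and Tfrc-204, where the last 3 run together at this scale. The matches fall outside Tfrc-202 and Tfrc-203.

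Retained-intron transcripts as a whole took 64.5 ± 2.14% of the Slc1a5 level. This share was above that of 96.5% of the 6479 detected protein-coding genes that have such a transcript, whose median was 12.9% and upper quartile 27.8%. With protein-coding transcripts alone the level of Slc1a5 was 98.8 ± 12.8 TPM, against 98.0 ± 8.65 TPM for Slc3a2. These values overlapped, and the step between the first and second gene in the order seen over all transcripts was no longer present.

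The sodium-coupled transporter genes Slc38a1 and Slc38a2 are neighbours on chromosome 15, on the minus strand and 44478 bases apart. Slc38a2 (chr15:96687392-96699730), encoding SNAT2, had 66.53 and 56.61 TPM from 6731 and 5551 estimated counts. Slc38a1 (chr15:96571418-96642913), encoding SNAT1, had 48.96 and 43.29 TPM from 5195.93 and 4153.71 estimated counts. Slc38a2 was the higher in both libraries, by 1.36-fold and 1.31-fold, and the values of the 2 genes did not overlap. Slc38a2 exceeded 70.8% of detected protein-coding genes and Slc38a1 62.8%.

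Of the 9 other SLC38 genes 4 were detected, and the median of the 9 was 0.110 TPM. Slc38a10 had 88.87 and 80.25 TPM, 1.38 ± 0.0578 times Slc38a2, and Slc38a9, a lysosomal arginine sensor of the mTORC1 pathway, had 33.13 and 29.96 TPM. Slc38a7, a lysosomal glutamine exporter, followed at 11.58 and 11.46 TPM. Slc38a3, Slc38a4 and Slc38a8 had 0 estimated counts in both libraries, which allows up to 3 per library. Slc38a4 is the next family member beside Slc38a2, 295089 bases away. Slc38a5 had 0.03 TPM in both libraries and Slc38a11 0.20 and 0.02 TPM.

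Tfrc (chr16:32608920-32632794, plus strand) had 24.07 TPM in library 1 and 25.61 TPM in library 2, from 1836 and 1730 estimated counts. The mean of 24.8 ± 1.09 TPM exceeded that of 43.4% of detected protein-coding genes. Its values lay below those of Slc7a6, by a margin of 1.23-fold in library 1 but 1.06-fold in library 2. Over protein-coding transcripts alone Tfrc had 15.99 and 17.46 TPM, below the 19.73 TPM of Slc7a6 in library 1 and above its 16.19 TPM in library 2. The library 2 value of Tfrc included 2.08 TPM from 5 estimated counts of Tfrc-203, a transcript of 166 bases. Without those counts Tfrc lay below Slc7a6 in library 2 too.

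A strict pattern for the hairpin elements that the iron regulatory proteins bind was searched for in all annotated protein-coding genes, on the transcript strand. It was a C, then 5 bases, then a loop of CAGTG followed by A, C or T, then 5 bases that pair with the first 5. G and T were allowed to pair. Hairpins with another loop or an unpaired stem base are missed, so the counts are of matches and not of all elements. Tfrc-201 holds 4 matches in its 3′ untranslated region, 892 to 1383 bases after the coding region. They are shown because they set Tfrc apart by sequence from the other 6 genes. Each is printed as 29 bases on the plus strand of GRCm38 with the 6 loop bases in capitals.
Tfrc element 1, chr16:32631219-32631247: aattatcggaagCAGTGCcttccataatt
Tfrc element 2, chr16:32631598-32631626: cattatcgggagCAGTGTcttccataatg
Tfrc element 3, chr16:32631663-32631691: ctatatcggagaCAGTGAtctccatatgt
Tfrc element 4, chr16:32631710-32631738: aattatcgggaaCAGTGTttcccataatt
The gaps between their starts are 379, 65 and 47 bases. Among 21877 genes with a protein-coding transcript 222, or 1.01%, hold at least 1 match, and Tfrc was the only 1 of them with 3 or more. None of the 6 transporter genes holds a match. A match is a description of the letters and not of binding. The iron regulatory proteins are encoded by Aco1, at 25.66 and 22.92 TPM, and Ireb2, at 18.63 and 16.46 TPM, which are named for that role after their values were seen.

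Transcripts that hold the elements are Tfrc-201 and the retained-intron transcript Tfrc-204, 2 of the 7 annotated. They took 73.8% and 67.4% of the Tfrc level in TPM, and 93.2% and 91.3% of its estimated counts. In TPM they stood at 17.8 and 17.3. The shares in TPM and in counts differ because the other 5 transcripts are shorter than these 2. Tfrc-205, of 571 bases, took 14.6% and 12.8% of the TPM but 2.12% and 2.04% of the estimated counts. Tfrc-203, of 166 bases, had 0 and 5 estimated counts, which TPM turned into 0 and 2.08, or 8.12% of the gene in library 2. Without transcripts under 200 bases, a limit chosen after seeing the data, Tfrc stood at 24.07 and 23.53 TPM, so the direction between the libraries in TPM rested on those 5 counts.

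Of 20 genes for iron uptake, storage and control 17 were detected. The ferritin genes Ftl1 and Fth1, whose proteins store iron, were the highest, at 1763.26 and 1753.83 TPM for Ftl1 and 1558.96 and 1559.75 TPM for Fth1. Fth1 was 62.8 ± 2.73 times Tfrc in TPM. The ferritin levels are uncertain, because the whole-number gene counts held 1126 and 1113 reads for Fth1 and 410 and 389 for Ftl1, against 27117.5 and 25945.5 estimated counts for Fth1 and 30670.7 and 30036.7 for Ftl1, and both genes are known to have near-identical pseudogene copies. Pcbp1, an iron chaperone, had 302.42 and 286.42 TPM. Tfr2, the second transferrin receptor, was not detected at 0.95 and 0.60 TPM, nor was Hfe, a partner of the transferrin receptor, at 0.62 and 0.74 TPM, nor Steap3, a ferrireductase of the transferrin cycle, at 0.15 and 0.16 TPM. The hairpin pattern was found in 3 of the 20, Fth1, Ftl1 and Slc40a1 (the iron exporter ferroportin), each in the 5′ untranslated region, where it is known to hold back translation when iron is scarce.

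Tfrc is also high in developing red cells, so erythroid markers are given beside it. Of 9 such markers 5 were detected, with a summed level of 384 and 352 TPM, most of it from the globin genes Hba-a2 (141.08 and 126.06 TPM), Hbb-bs (129.54 and 126.11 TPM) and Hba-a1 (83.22 and 75.32 TPM). The globin levels are uncertain, because the whole-number gene counts held 74 and 51 reads for Hba-a2, against 1506.13 and 1306.21 estimated counts. For Hbb-bs they held 126 and 119 against 1585.57 and 1460.07, and for Hba-a1 74 and 80 against 782.87 and 687.79. Alas2, which encodes the first enzyme of heme synthesis in red cell precursors, was detected at 2.63 ± 0.184 TPM. Other markers of that lineage were lower: Klf1 had 0.13 and 0 TPM, Epor 0.38 and 0.26 TPM and Slc4a1 0.11 and 0.73 TPM. Their part in the Tfrc level was not tested.

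How far the other genes were carried by coding transcripts differed among them. Slc7a5 was nearly all protein-coding, with Slc7a5-201 at 96.8% and 97.6% of its TPM, and Slc38a2-201 took 88.0% and 88.5% of Slc38a2. Slc3a2 was divided between the coding transcripts Slc3a2-201, at 58.8% and 53.8%, and Slc3a2-207, at 27.2% and 30.6%. Slc38a1-201 took 42.7% and 34.3% of Slc38a1, and Slc38a1-203 27.9% and 29.8%. In each of these 4 genes the leading transcript was the same in both libraries.

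Slc7a6 was also divided among several transcripts. Slc7a6-201 took 44.1% and 37.6% of its TPM, and the retained-intron transcript Slc7a6-207 took 25.3% and 29.6%. Slc7a6-207 keeps intron 4 of 9 (chr8:106192484-106193150, 667 bases), and its frame meets a TAA within that intron after 265 of 515 codons, or 51.5% of the coding length. Minor transcripts of Slc7a6 varied between the libraries: Slc7a6-202 took 10.4% in library 1 and 0% in library 2, while Slc7a6-203, annotated for nonsense-mediated decay, took 2.73% and 10.97%. The coding transcript Slc7a6-205, of 616 bases, took 12.0% and 21.8%, from 42.51 and 69.02 estimated counts. Its deposited interval ran from 0.06 to 6.36 TPM in library 1 and from 0.44 to 7.37 TPM in library 2. The level of Slc7a6 over protein-coding transcripts is therefore uncertain.

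Retained-intron transcripts took 32.7 ± 1.23% of Tfrc, 30.2 ± 0.783% of Slc7a6 and 19.4 ± 1.19% of Slc38a1. They took 11.8 ± 0.382% of Slc38a2, 9.41 ± 1.97% of Slc3a2 and 2.81 ± 0.518% of Slc7a5. Slc1a5, Tfrc and Slc7a6 thus lay above the upper quartile of detected protein-coding genes with such a transcript, and Slc38a2, Slc3a2 and Slc7a5 lay below their median. The Tfrc share was 19.8 ± 3.08% when taken over estimated counts. Retained intron is the annotated type, and such a transcript need not keep a whole intron of the leading coding transcript. In Tfrc only Tfrc-205 did, at 13.7% of TPM and 2.08% of estimated counts on average. No transcript of Slc38a1, Slc3a2 or Slc7a5 did.

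**Figure D4:**
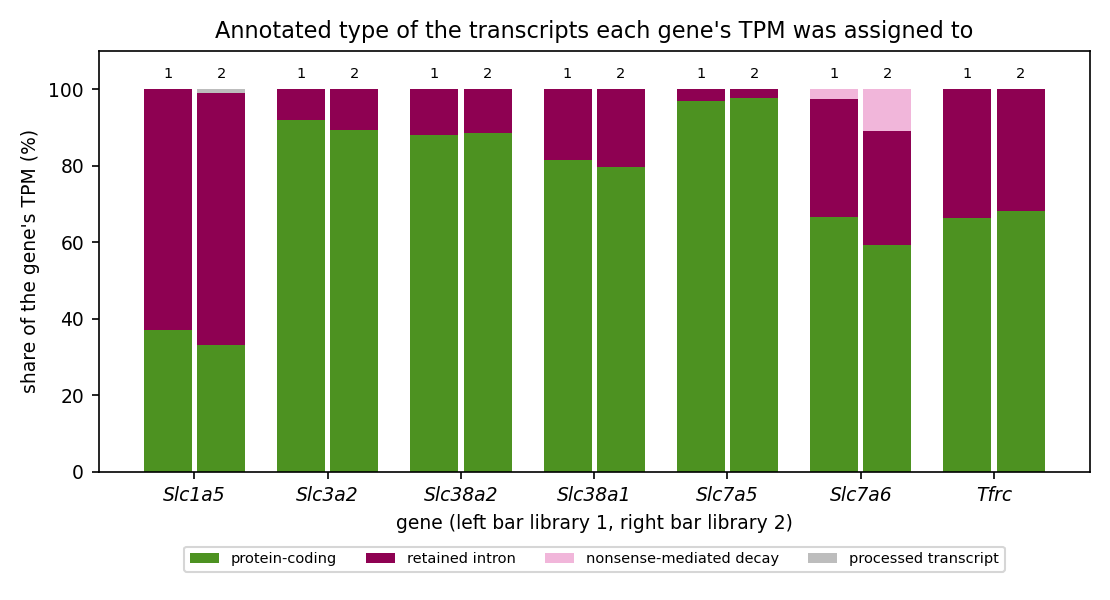
Stacked bars give the share of each gene's TPM, in percent, by the annotated type of the transcripts, with library 1 as the left and library 2 as the right bar of each pair. Retained-intron transcripts take 64.5% of Slc1a5 on average, and protein-coding transcripts take the larger share of each of the other 6 genes.

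In order of mean level the genes were Slc1a5, Slc3a2, Slc38a2, Slc38a1, Slc7a5, Slc7a6 and Tfrc. The libraries' values of neighbours did not overlap except for Slc7a5 and Slc7a6, which changed places in library 2. The order of the means was the same over protein-coding transcripts alone. There Slc1a5 overlapped Slc3a2 and Slc7a6 overlapped Tfrc, while Slc7a5 and Slc7a6 did not overlap. The overlap of Slc7a6 and Tfrc rested on 5 estimated counts of Tfrc-203 in library 2, without which Tfrc lay below Slc7a6 in both libraries.

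Between the technical libraries, 5 of the 7 genes were called different by an exact two-sided binomial test of rounded estimated counts with Benjamini-Hochberg adjustment over 18746 genes, where 36.5% of all genes were called. All 5 were higher in library 1, a direction called for 19.2% of all genes. The test compares these libraries, covers counting error only and says nothing of other mice. With edgeR's exact test, which adds the common dispersion of the libraries, 0 of the 7 were called and 0 had an unadjusted p under 0.05, where 2.98% of all genes were called. The members have 3199 to 29977 summed counts, and among the 4967 genes with 3000 to 30000 summed counts 51.5% were called by the binomial test.

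The difference was greatest for Slc7a5, with a log2 ratio of library 1 over library 2 of 0.27 (95% exact binomial interval 0.18 to 0.36, adjusted p = 3.25e-08). It was 0.21 for Slc38a1 (adjusted p = 9.3e-11), 0.16 for Slc38a2 (adjusted p = 7.87e-09) and 0.09 for Slc3a2 (adjusted p = 0.0274) by the same exact test. For Slc1a5 it was 0.06 (adjusted p = 0.00291, same exact test), but −0.05 in the whole-number gene counts. Slc7a6 differed by 0.01 (interval −0.09 to 0.11) and Tfrc by −0.03 (interval −0.12 to 0.07), which was within counting error, and in the whole-number gene counts both ratios had the other sign. The median log2 ratio was 0.09 over the 7 genes and −0.00094 over all genes tested. The ratios of the 4967 genes with like counts had an SD of 0.15.

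**Figure D5:**
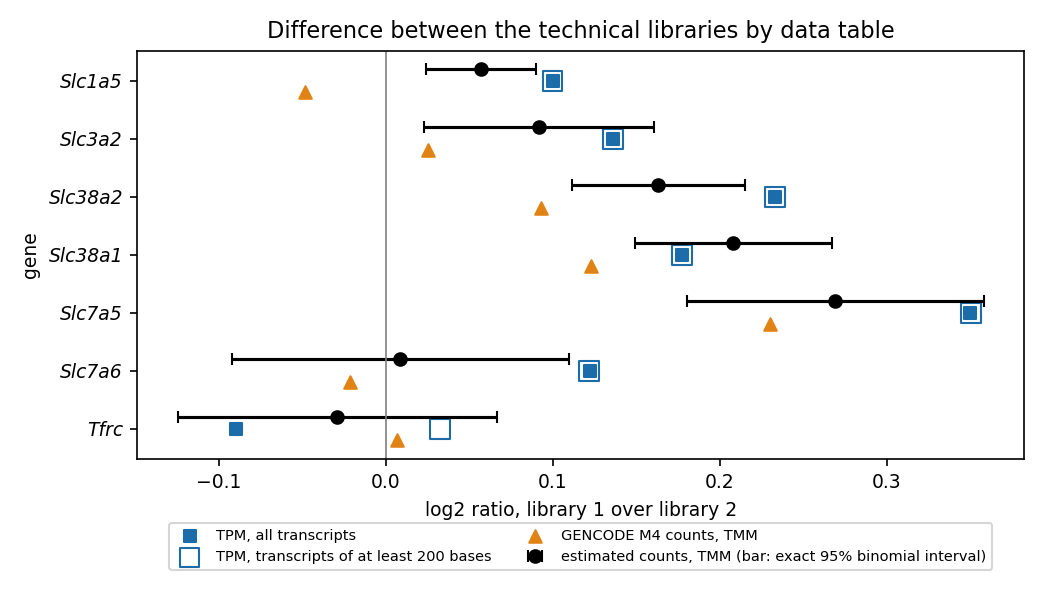
Log2 ratio of library 1 over library 2 for each gene, from estimated counts (black, with exact 95% binomial intervals), from TPM (blue squares) and from whole-number gene counts on GENCODE M4 (orange triangles). Slc7a5, Slc38a1, Slc38a2 and Slc3a2 are above 0 in each table, while Slc1a5, Slc7a6 and Tfrc change sign between tables.

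The deposited whole-number counts on the older GENCODE M4 annotation detected all 7 genes but were lower than the estimated counts by unequal amounts. They held 20.8% and 22.8% of the estimated counts for Slc1a5, and 55.4% and 59.1% for Slc3a2. Slc38a2 had 23.8% and 25.5%, Slc38a1 23.9% and 25.9%, Slc7a5 35.6% and 37.3%, Slc7a6 43.5% and 45.3%, and Tfrc 43.5% and 43.2%. Over all genes with 1000 to 3000 estimated counts, the range of Slc7a5, Slc7a6 and Tfrc, the median share was 44.6% and 45.3%. It was 36.1% and 35.9% from 3000 to 10000 counts, and 17.2% and 16.4% from 10000 to 30000 counts, so deeper genes kept smaller shares. Slc3a2 and Slc1a5 kept more than the median of their range in both libraries, and the other 5 kept less, of which Slc7a6 and Tfrc lay close to it.

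Genes that use or sense what these transporters carry were described from lists. Of 13 genes of glutamine and leucine use 11 were detected, among them the glutamate dehydrogenase Glud1 at 118.37 and 108.48 TPM and the aspartate aminotransferase Got2 at 96.71 and 90.48 TPM. The alanine aminotransferase Gpt2 was not detected, at 0.73 and 1.34 TPM. Of 14 genes of the amino acid response 13 were detected, among them the serine synthesis enzyme Phgdh at 133.72 and 129.96 TPM and the transcription factor Atf4 at 81.39 and 83.56 TPM, which is known to act on transporter genes of this set. Shmt2, a mitochondrial serine hydroxymethyltransferase, had 86.10 and 75.66 TPM, and Chac1 had 0.03 and 0 TPM. Of 8 genes of Myc and its partners 6 were detected, with Myc itself, a known activator of Slc7a5 and Tfrc, at 236.51 and 201.50 TPM, and its partner Max at 143.07 and 139.94 TPM. All 4 of 4 cycling markers were detected, with a summed level of 24.7 and 26.9 TPM. Some of these levels are uncertain, because the whole-number gene counts held far fewer reads than the estimated counts. For Phgdh they held 592 and 565 against 5184.68 and 4890.36. For Got2 they held 560 and 561 against 4992.58 and 4528.29, and for Max 679 and 701 against 4642 and 4622. With 2 technical libraries no likeness of pattern between these lists and the 7 genes was computed.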

How the data were processed

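Both libraries were polyA-selected RNA of 1 biosample of mouse Treg cells. The binomial p-values compare the technical libraries and cover counting error only. Per the file headers, the authors' GENCODE M21 gene and transcript tables on mm10 (GRCm38) hold estimated counts, TPM and FPKM, the percent of each gene per transcript, and bounds of a credibility interval of TPM, treated here as a score. The authors also deposited whole-number counts per gene on GENCODE M4, which are not corrected for length. For the aligner and the quantifier, no name or version is given in the sources used here. The deposited effective length equalled the length less 49 bases in all 168207 transcripts, so short transcripts gain weight in TPM. Rows naming no gene held 0.197% and 0.212% of estimated counts and were left out.

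Levels are TPM as deposited. Estimated counts were rounded and compared by an exact binomial test (scipy 1.17.1, Python 3.11.15) with TMM scaling (edgeR 4.0.16, R 4.3.3), a summed count of at least 10 and a prior count of 0.5, with Benjamini-Hochberg adjustment over all genes at 0.05. With 1 library per side edgeR's quasi-likelihood test cannot be fitted, and an exact test of edgeR that takes the common dispersion, along with DESeq2 1.42.0 size factors, were alternatives. The tests were run on data simulated under each test's own assumptions, which cannot show whether these libraries meet them. PCR copies are not independent molecules, so intervals and floors cover counting error only. Sequences and coordinates (1-based) came from GENCODE M21 transcripts on GRCm38. The genes and lists were chosen with earlier results of these data known. Named beside the 7 genes are at most the 3 highest of each list, those not detected and adjoining genes. Slc40a1, Alas2, Aco1 and Ireb2 fall outside that rule. Some genes under the rule are not reported here.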

Additional observations from a re-analysis of the deposited data

How the results depend on the processing

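All 7 genes were detected under each of the 6 alternatives (minima of 0.1 or 10 TPM, FPKM, posterior mean TPM, without library 1, without library 2), and the leading transcript of all 7 was the same under 4 alternatives. The ratio of Slc3a2 to its light chains was 1.92 over protein-coding transcripts alone, and it ranged from 1.64 to 1.75 when either library was left out. Of the 7 genes, 5 were called between libraries with library totals or DESeq2 size factors and 4 with every gene of at least 1 read, but 1 was called with the M4 counts and 0 with edgeR's exact test. The edgeR result decides nothing about these calls, because its dispersion was estimated from the same libraries. With the M4 counts, which hold fewer reads, the log2 ratio was −0.048 for Slc1a5, −0.022 for Slc7a6 and 0.0067 for Tfrc, each of the other sign. Without transcripts under 200 bases, an alternative chosen after seeing the data, the log2 TPM ratio of Tfrc was 0.033. The cause of these changes was not tested. Without library 1 Slc7a6 stood above Slc7a5, so 5 of 7 places in the order were kept, and without library 2 all 7 were. Levels relative to Slc3a2 depended on the unit: Slc1a5 was 261% of Slc3a2 in TPM, 100.6% over protein-coding transcripts, 436% in estimated counts not divided by length and 166% in M4 counts not divided by length. No paired analysis was possible because there is 1 group of 1 biosample. Depth limited genes at 0 counts to a bound of 3 counts per library, and transcript levels depend on how shared reads were divided.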
